A study of Mus musculus with 8 samples.

Results

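Mouse back-skin epidermis was profiled by RNA sequencing, and the values described here are those of 38 genes whose products build ribosomes in the nucleolus or drive that process. They were taken by symbol from a list chosen with earlier results of these data known. All 38 were found among the 16902 genes of the data. All 38 also passed the filter on low values (a mean normalised count no lower than 10 in untreated or in IMQ-treated libraries), which 14614 genes passed.

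There were 8 libraries in 4 groups of 2, each group made of 1 female and 1 male CD1 mouse. The groups were Ovol1 -/- mice treated with IMQ, Ovol1 +/+ controls treated with IMQ, untreated Ovol1 -/- mice and untreated Ovol1 +/- controls. The control genotype is thus not the same with and without IMQ. IMQ is imiquimod, an agonist of a Toll-like receptor that is put on mouse skin to produce psoriasis-like inflammation. Ovol1 encodes a zinc-finger repressor of transcription, known in the mouse to act on Myc in epidermal progenitor cells. The animals' ages and the dose and length of the IMQ treatment are not given in the labels used here, and the labels do not say whether the 2 mice of a group shared a litter.

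Ribosome production starts with transcription of ribosomal DNA by RNA polymerase I. Small nucleolar ribonucleoproteins (snoRNPs) then modify and fold the precursor RNA, the small subunit processome cuts out the 40S precursor, and a separate set of factors assembles the 60S precursor before both leave the nucleolus. MYC is a transcription factor known to raise the expression of many of these factors, through E-boxes in their promoters, in cells that grow.

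The letters of these promoters were read first, because the members are often described as MYC targets. The E-box CACGTG, which reads the same on both strands, was searched in RefSeq windows of 300 bases, 250 before and 50 after each transcription start (GRCm38.p6). Of the 38 members 32 had a window, and 7 of these (21.9%) held the motif, beside 1275 of 11458 genes tested with a window (11.1%). Among 89 other ribosome biogenesis factors, chosen by name, 17 of 74 (23.0%) held it, and among 79 cytosolic ribosomal protein genes 6 of 58 (10.3%). A match is a description of the letters only. The 7 stretches are shown 5′ to 3′ on the strand of the gene, with the E-box in capitals.
Imp4, chr1:34439696-34439725, plus strand: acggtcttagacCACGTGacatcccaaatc
Ltv1, chr10:13193092-13193121, minus strand: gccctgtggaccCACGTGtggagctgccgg
Mybbp1a, chr11:72441355-72441376, plus strand: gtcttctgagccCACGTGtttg
Nop2, chr6:125131811-125131840, plus strand: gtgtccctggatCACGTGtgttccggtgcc
Pes1, chr11:3963965-3963994, plus strand: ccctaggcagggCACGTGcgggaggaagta
Utp20, chr10:88826765-88826789, minus strand: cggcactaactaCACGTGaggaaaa
Wdr43, chr17:71616220-71616249, plus strand: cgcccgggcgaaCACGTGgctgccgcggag

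In Nop2 the motif began 60 bases before the annotated start and in Imp4 121 bases before it. In the other 5 genes it lay within the first 50 transcribed bases. The 250 bases upstream of Nop2, one of the members that IMQ moved most, read as follows, with the E-box in capitals.
Nop2, chr6:125131633-125131882, plus strand: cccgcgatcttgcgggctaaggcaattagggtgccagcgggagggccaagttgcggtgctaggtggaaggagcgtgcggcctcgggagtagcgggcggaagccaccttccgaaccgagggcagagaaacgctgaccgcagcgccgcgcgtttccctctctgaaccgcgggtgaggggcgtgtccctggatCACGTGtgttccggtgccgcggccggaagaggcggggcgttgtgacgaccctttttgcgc

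The deposited values are normalised counts, and their steps gave back whole counts, 28.6 to 43.1 M (mega) reads per library. For comparisons of IMQ with untreated skin these reads were put on 1 scale as counts per M reads (CPM), since the deposited values of the 2 treatments were scaled apart. Ovol1 itself read at 13457 (female) and 13076 (male) normalised counts in the IMQ-treated mice labelled knockout, against 7635 and 9556 in the IMQ controls. It read at 27433 and 26601 in the untreated mice labelled knockout, against 16629 and 14582 in the untreated controls. Its level was thus higher in the labelled knockouts, without passing the test (adjusted p 0.0880 with IMQ and 0.346 without, by limma), and since there is 1 value per gene and the deleted part is not given, the genotype labels were not checked by it. The word "labelled" is kept for that reason.

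Cell type markers were followed beside the members, as sums of CPM. The 10 keratinocyte markers summed to 23034 and 30877 CPM in IMQ-treated labelled knockouts, 34040 and 38555 CPM in IMQ controls, and 34737 to 39643 CPM over the 4 untreated libraries, so the tissue carried its labelled cell type in all 8 libraries. The 8 dermal fibroblast markers differed most between the sexes. They summed to 78.2 CPM in the female and 1665 CPM in the male IMQ-treated labelled knockout, 261 and 2604 CPM in the IMQ controls, 75.4 and 515 CPM in the untreated labelled knockouts, and 153 and 481 CPM in the untreated controls. The 5 neutrophil markers summed to 588 and 461 CPM in IMQ-treated labelled knockouts, 58.8 and 271 CPM in IMQ controls, and 3.63 to 8.05 CPM over the untreated libraries. Most of that sum was S100a8, S100a9 and Cxcr2, so it follows these RNAs and is not a count of neutrophils. Which cells held these RNAs was not tested. Retnlg had 0 reads in 4 of the 8 libraries, and Csf3r stayed under 1 CPM in all 8. The 8 Langerhans and myeloid markers ran from 934 to 1985 CPM under IMQ and from 751 to 1116 CPM without it.

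Under IMQ the ribosome biogenesis genes were higher as a body, in both genotypes. In labelled knockouts 37 of the 38 members rose in IMQ-treated against untreated epidermis and Myc fell, while 26.2% of all genes tested rose and 24.1% fell (limma with Benjamini-Hochberg adjustment, threshold 0.05). In controls 36 rose and none fell, beside 17.6% of all genes tested that rose and 14% that fell, and the other two, Nolc1 and Myc, did not pass. DESeq2 called all 38 in controls, 37 higher (18.2% of all genes) and Myc lower (16.3%). The members' median log2 fold change was 1.76 in labelled knockouts and 1.18 in controls, where the median of all genes was -0.01 and 0.02. All members but Myc had both IMQ libraries above both untreated libraries, in each genotype (39.9% of all genes did so in labelled knockouts and 35.3% in controls). Genes of the neutrophil list rose beside them, 3 of 4 tested in labelled knockouts and 4 of 4 in controls. The one that did not pass in labelled knockouts was Csf3r (0.38, adjusted p 0.226 by limma). The part of neutrophils in the members' rise was not tested. In bulk tissue more RNA per cell and a larger share of cells that express a gene cannot be told apart, and treatment coincides with the table the libraries were deposited in. In controls treatment also coincides with genotype, +/- without IMQ and +/+ with it.

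**Figure D1:**
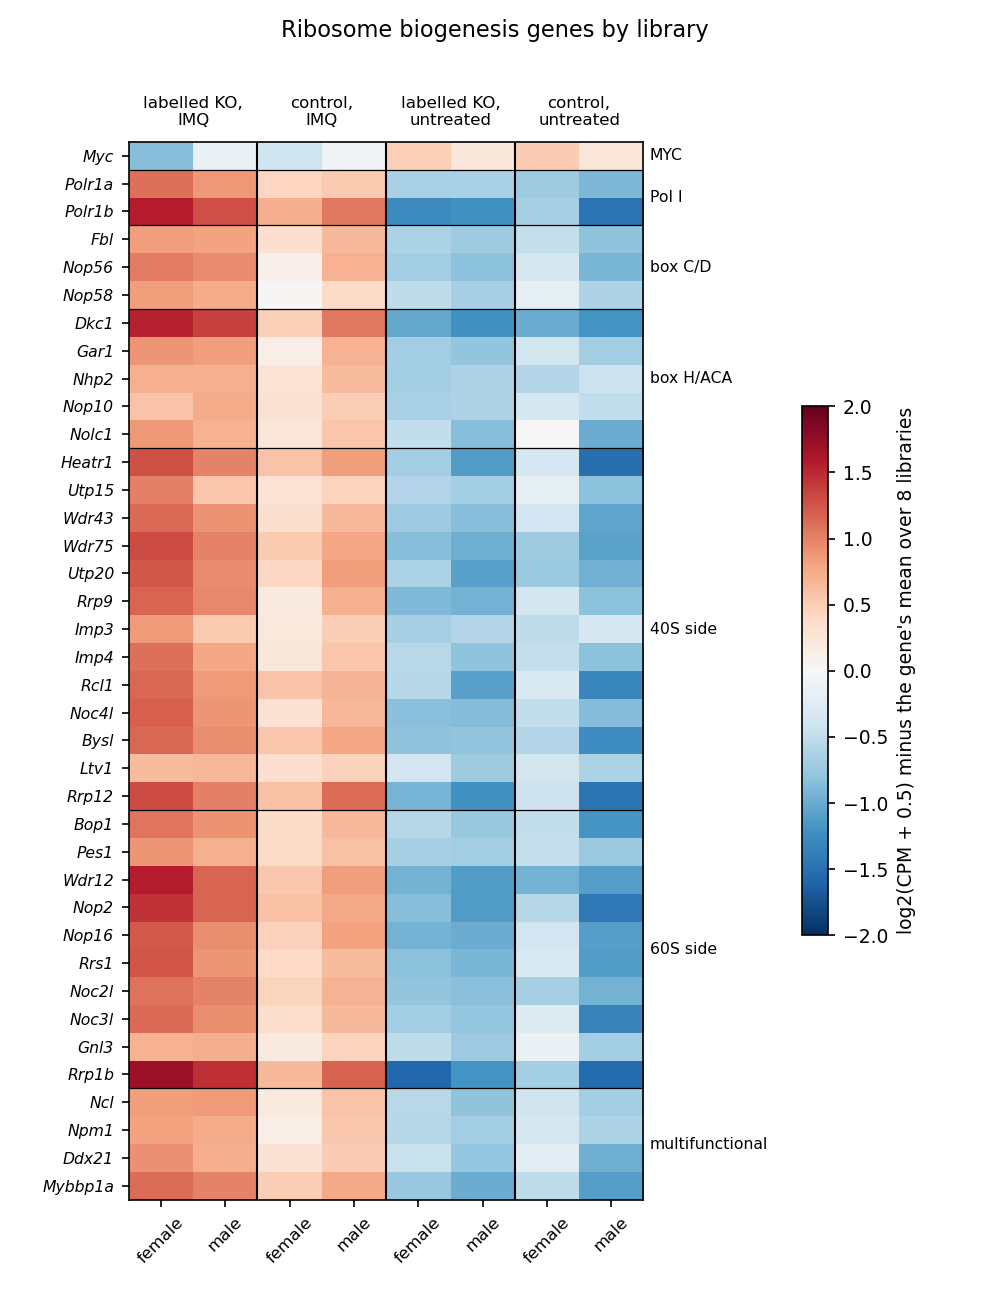
Level of each of the 38 members (down the page, by role) in each of the 8 libraries (across), as log2(CPM + 0.5) minus the gene's mean over the 8 libraries, red above and blue below that mean. The 37 members other than Myc are above their mean in nearly all IMQ libraries and below it in the untreated ones, palest in the female control under IMQ, and Myc runs the other way.

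As a sum, the 37 members without Myc made up 9533 CPM in the female and 8827 CPM in the male IMQ-treated labelled knockout, and 5901 and 7515 CPM in the IMQ controls. Without IMQ they made up 3198 and 2807 CPM in the labelled knockouts and 3767 and 2811 CPM in the controls. The share of all reads was 0.944% and 0.832% in IMQ-treated labelled knockouts, 0.593% and 0.709% in IMQ controls, and 0.289% to 0.378% over the untreated libraries. The IMQ and untreated libraries did not overlap, and the female control stood lowest among the IMQ libraries.

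MYC protein and its activity were not measured. The RNA of Myc, on chr15:61985391-61990374 of GRCm38, had a negative log2 fold change under IMQ in each genotype, where the other members had positive ones. It read at 147 CPM (female) and 245 CPM (male) in IMQ-treated labelled knockouts, against 373 and 313 CPM in untreated labelled knockouts. The log2 fold change was -0.84 (SE 0.25), with an adjusted p of 0.0260 by limma. In controls it read at 202 and 255 CPM with IMQ, against 379 and 316 CPM without, a log2 fold change of -0.61 (SE 0.25) that missed the threshold at an adjusted p of 0.102. The value in controls passed by DESeq2 (-0.64, adjusted p 0.0433). It did not pass by edgeR, with sex as a block, or under the other pseudocounts, filters and scalings. Leaving out an IMQ-treated labelled knockout, which is not part of this comparison, gave -0.62 (female) and -0.63 (male) by limma. Both IMQ libraries lay below both untreated ones in each genotype (40.1% of all genes did so in labelled knockouts and 32.3% in controls), and the female was the lower of the 2 under IMQ and the higher of the 2 without it. The call in labelled knockouts rested on single libraries: without the female IMQ-treated labelled knockout the log2 fold change was -0.51 (adjusted p 0.108), without the female untreated one -0.72 (0.129), and without the male untreated one -0.97 (0.0597).

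**Figure D2:**
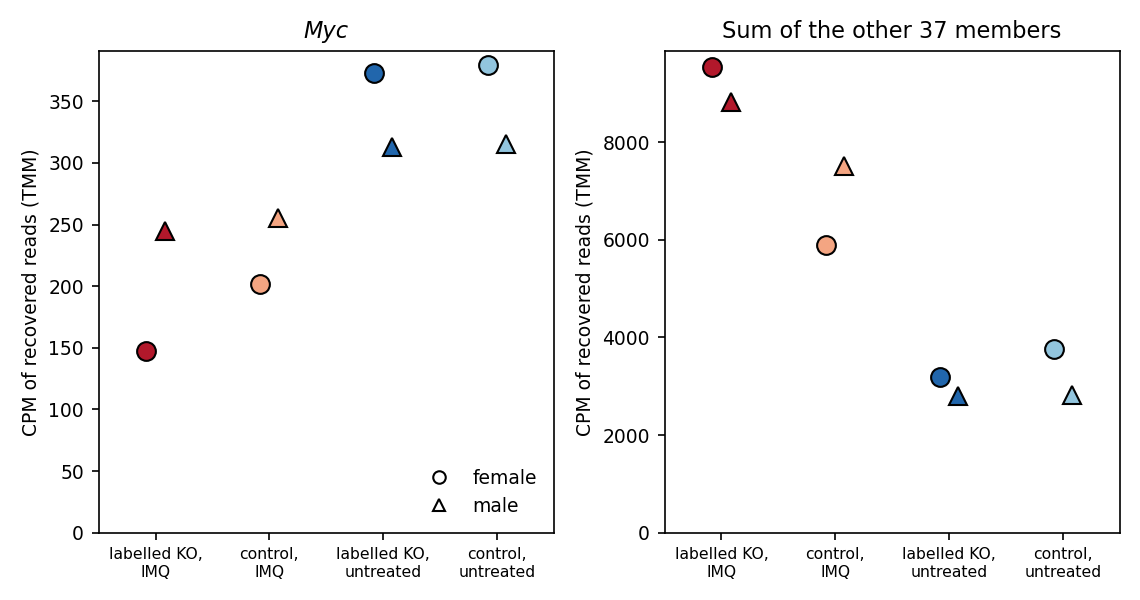
Left, Myc, and right, the sum of the other 37 members, in CPM of recovered reads for each library, with circles for females and triangles for males. Myc is at 147 to 255 CPM in the 4 IMQ libraries and at 313 to 379 CPM in the 4 untreated ones, while the sum is at 5901 to 9533 CPM with IMQ and at 2807 to 3767 CPM without.

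The RNA polymerase I subunits rose by a median of 2.16 on the log2 scale in labelled knockouts and 1.63 in controls. Polr1a, the largest subunit and part of the catalytic core, read at 85.6 and 72.3 CPM in IMQ-treated labelled knockouts, against 25 and 24.9 CPM in untreated ones (log2 fold change 1.64, SE 0.13, adjusted p 2.93e-04). The controls had 53.7 and 57.2 CPM with IMQ and 23.8 and 20.9 CPM without (1.29, SE 0.13, adjusted p 0.00160). Polr1b, the other large core subunit, rose by 2.68 in labelled knockouts and by 1.96 in controls. It read at 73.0 and 60.4 CPM in IMQ-treated labelled knockouts, against 9.72 and 10.2 CPM in untreated ones, and at 40.4 and 50.9 CPM in IMQ controls, against 15.2 and 8.40 CPM in untreated controls.

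The snoRNP proteins rose by a median of 1.49 (box C/D) and 1.44 (box H/ACA) in labelled knockouts, and the roles were not tested against each other. Fbl, the ribose methyltransferase of box C/D particles, and the scaffolds Nop56 and Nop58 had log2 fold changes of 1.38 to 1.75 in labelled knockouts and 0.60 to 1.14 in controls. Nop58, the smallest of the changes in controls, read at 440 and 409 CPM in IMQ-treated labelled knockouts, against 172 and 155 CPM in untreated ones, and at 248 and 320 CPM in IMQ controls, against 215 and 160.1 CPM in untreated controls. The groups did not overlap, yet the untreated female control came close to the female IMQ control, and the control call (0.60, SE 0.18, adjusted p 0.0420) was lost on leaving out any 1 of 6 of the 8 libraries.

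In the box H/ACA particles, which turn uridine into pseudouridine, Dkc1 (dyskerin, the pseudouridine synthase, chrX:75095854-75109777) moved most. It read at 159 and 140.3 CPM in IMQ-treated labelled knockouts, against 26.4 and 23.1 CPM in untreated ones, a log2 fold change of 2.57 (SE 0.20, adjusted p 2.88e-04). IMQ controls had 75.4 and 114 CPM, against 27.0 and 23.4 CPM in untreated controls (1.86, SE 0.20, adjusted p 0.00193). Its partners Gar1, Nhp2 and Nop10 rose by 1.30 to 1.60 in labelled knockouts and by 0.83 to 0.96 in controls. Nolc1, a chaperone of both kinds of snoRNP, read at 258 and 228 CPM in IMQ-treated labelled knockouts, against 101 and 78.4 CPM in untreated ones (1.44, SE 0.30, adjusted p 0.00645). In controls it read at 167 and 208 CPM with IMQ, against 140.2 and 70.9 CPM without, and missed the threshold (0.90, SE 0.30, adjusted p 0.0575). The untreated female control stood far above the untreated male control, and with sex as a block Nolc1 passed (adjusted p 0.0414).

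All 13 members on the small subunit side rose in both genotypes, by a median of 1.83 in labelled knockouts and 1.21 in controls. Among the early-binding processome proteins, which join as the precursor is transcribed, Heatr1 rose by 2.04 in labelled knockouts and 1.62 in controls. Wdr75 rose by 2.07 and 1.54, Wdr43 by 1.81 and 1.21, and Utp15 by 1.41 and 0.87. Wdr43, the most abundant of the 13 by CPM, read at 354 and 300.5 CPM in IMQ-treated labelled knockouts, against 97.1 and 88.9 CPM in untreated ones, and at 200.8 and 251 CPM in IMQ controls, against 123 and 76.7 CPM in untreated controls. Later factors covered a similar range. Rrp12, a factor of precursor export, rose by 2.23 in labelled knockouts and 1.78 in controls, Bysl (bystin) by 1.83 and 1.58, and Ltv1, which is released late from the 40S precursor, by 1.20 and 0.90.

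All 10 members on the large subunit side rose as well, by a median of 1.90 in labelled knockouts and 1.36 in controls. The extreme of all members was Rrp1b (chr17:32036100-32062865), a nucleolar protein of 60S assembly. It read at 83.5 and 69.5 CPM in IMQ-treated labelled knockouts, against 8.13 and 10.6 CPM in untreated ones, 7.83-fold higher (log2 2.97, SE 0.31, adjusted p 4.98e-04). In controls it read at 39.5 and 57.4 CPM with IMQ and at 15.4 and 8.26 CPM without, 4.08-fold higher (log2 2.03, SE 0.31, adjusted p 0.00430). Bop1, Pes1 and Wdr12 form the PeBoW complex of 60S maturation, yet their changes differed in size. Wdr12 rose by 2.40 in labelled knockouts and 1.71 in controls, Bop1 by 1.64 and 1.34, and Pes1 by 1.48 and 1.09.

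Nop2, an rRNA methyltransferase whose promoter is printed above, read at 191 and 156 CPM in IMQ-treated labelled knockouts, against 38.3 and 32.0 CPM in untreated ones (log2 2.29, SE 0.27, adjusted p 7.00e-04). IMQ controls stood at 105 and 119 CPM and untreated controls at 47.0 and 25.6 CPM (1.67, SE 0.27, adjusted p 0.00483). Nop16, another large subunit factor, rose by 2.04 in labelled knockouts and 1.37 in controls. Gnl3 (nucleostemin), the most abundant of the large subunit members by CPM, was at the low end, with 274 and 279 CPM in IMQ-treated labelled knockouts, against 119 and 102 CPM in untreated ones, and 190 and 229 CPM in IMQ controls, against 154 and 105 CPM in untreated controls. Its log2 fold changes were 1.32 in labelled knockouts and 0.71 in controls.

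The 4 multifunctional nucleolar proteins rose by a median of 1.48 in labelled knockouts and 0.96 in controls. Ncl (nucleolin, chr1:86344719-86359400), which binds nascent rRNA, read at 2266 and 2305 CPM in IMQ-treated labelled knockouts, against 868 and 728 CPM in untreated ones (1.52, SE 0.18, adjusted p 7.58e-04). In controls it read at 1452 and 1893 CPM with IMQ and at 965 and 793 CPM without (0.92, SE 0.18, adjusted p 0.00988). Mybbp1a, a nucleolar protein that binds transcription factors, rose by 1.93 in labelled knockouts and 1.44 in controls, the RNA helicase Ddx21 by 1.43 and 1.01, and the histone and ribosome chaperone Npm1 (nucleophosmin) by 1.41 and 0.82.

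**Figure D3:**
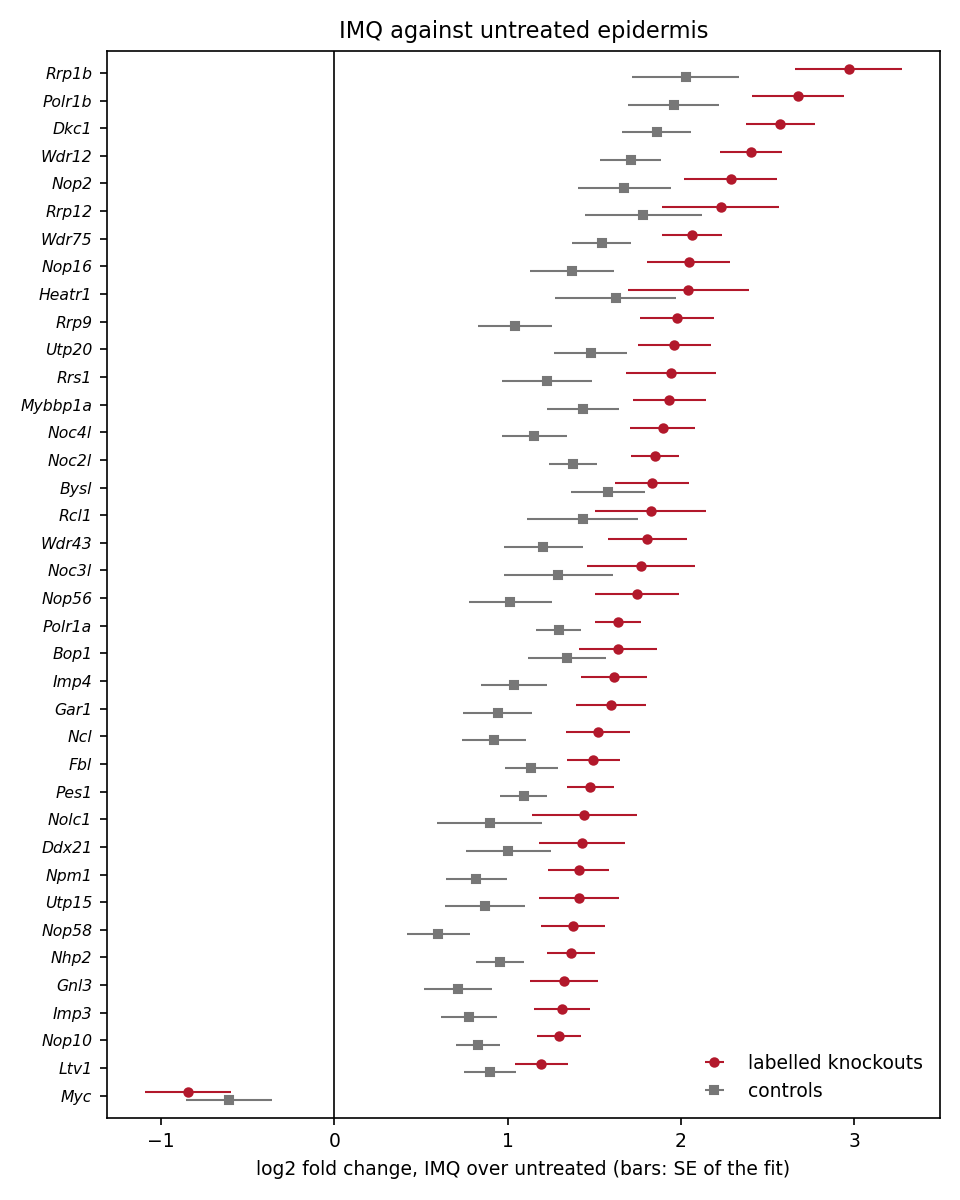
Log2 fold change of each member, IMQ over untreated, with the SE of the fit as bars, in labelled knockouts (circles) and controls (squares). The labelled knockout estimate is above the control one for all members but Myc, and the 2 genotypes share no library.

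In CPM per kilobase of exon the levels spanned a wide range. The length was that of all annotated exons together (10188 bases for Ncl, 11955 for Wdr12, 2665 for Npm1), whichever transcripts were expressed. The order of genes thus depends on that length. By CPM alone Ncl stood at 2285 and Npm1 at 1329 in IMQ-treated labelled knockouts. On the scale per kilobase Npm1 was highest there at 499 ± 15.4, with Ncl at 224 ± 2.72, Nhp2 at 180.5 ± 0.113 and Ddx21 at 103 ± 9.55 (SD, n = 2 each). Polr1a at 6.65 ± 0.793, Wdr12 at 7.30 ± 1.46 and Rrp1b at 9.93 ± 1.28 were lowest. The spreads of neighbours overlap at this end, of Polr1a with Wdr12, of Wdr12 with Rrp1b, and of Rrp1b with Imp4 at 10.1 ± 1.59 and Polr1b at 11.5 ± 1.54, so their order is not resolved. In untreated controls Npm1 stood at 209 ± 28.1, Myc at 128 ± 16.6 and Ncl at 86.3 ± 11.9 per kilobase. Their CPM there were 556 for Npm1, 348 for Myc and 879 for Ncl, so the place of Myc above Ncl depends on the lengths used. In IMQ-treated labelled knockouts Myc, at 72.2 ± 25.4 per kilobase, stood behind Npm1, Ncl and Nhp2, with a spread that overlaps those of Ddx21 and Imp3.

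Something the choice of members did not use is what lies inside them. By the GENCODE vM21 annotation 6 of the 38 members (15.8%) hold a small nucleolar RNA gene on their own strand, namely Nop56, Nop58, Dkc1, Wdr43, Gnl3 and Ncl, beside 275 of 16684 annotated genes of the data (1.65%). The changes of these hosts ran from Gnl3 at 1.32 to Dkc1 at 2.57 in labelled knockouts. Some members, among them Dkc1 with Mpp1, Rrp1b with Hsf2bp, Rrp9 with Parp3 and Wdr12 with Carf, overlap a gene on the other strand. The kit marked strand, but whether the counting used it is not given in the sources used here. Npm1 and other abundant members have processed pseudogenes, among which reads may have been split.

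The rest of the pathway moved with the members. Of the 89 other ribosome biogenesis factors 86 rose and none fell in labelled knockouts (median 1.43), and 80 rose and none fell in controls (median 0.91). The largest changes were those of Rpf2, which in yeast brings the 5S particle to the 60S precursor, at 2.92 in labelled knockouts and 1.86 in controls, of Nle1, a 60S maturation factor, at 2.82 and 2.03, and of the nucleolar growth regulator Lyar at 2.78 and 1.85. Nop53, Nsa2 and Utp25 did not pass in labelled knockouts, at -0.19, 0.22 and 0.69. Of 14 other genes of RNA polymerase I transcription 13 rose in labelled knockouts (median 0.82) and 7 in controls (median 0.47), led by the subunit Polr1e at 2.11 and 1.63 and by Tcof1 (treacle) at 2.003 and 1.47. Beside both lists, 26.2% of all genes tested rose and 24.1% fell in labelled knockouts, and 17.6% rose and 14% fell in controls.

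Ribosomal protein genes, whose products are the cargo of this pathway, moved by less. All 79 had a positive log2 fold change in labelled knockouts, 51 rose and the median was 0.49, with Rps2 at 1.38 and Rpl13a at 1.03 ahead. In controls 7 rose and the median was 0.32. Over all genes tested the share that rose was 26.2% in labelled knockouts and 17.6% in controls, as above.

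The MYC network list holds relatives of MYC, partners and rivals at E-boxes, and other genes tied to MYC. Of its 11 genes 2 rose and 5 fell in labelled knockouts, where 26.2% of all genes rose and 24.1% fell, and 2 rose and 3 fell in controls, where 17.6% rose and 14% fell. Max, the obligate partner of MYC, rose by 0.51 in labelled knockouts and 0.62 in controls, and Mlx, a Max-like protein, by 1.16 and 0.91. Mycl, a MYC relative, fell by 3.06 in labelled knockouts and by 1.76 in controls. It read at 3.35 and 6.65 CPM in IMQ-treated labelled knockouts, against 38.9 and 47.9 CPM in untreated ones, and at 16.2 and 7.82 CPM in IMQ controls, against 39.7 and 39.4 CPM in untreated controls. Mycn, another MYC relative, was at 1.18 CPM or less in all 8 libraries and fell by 0.89 in labelled knockouts (adjusted p 0.0188) and by 0.94 in controls (adjusted p 0.0251). Mxd4, a Max-binding repressor that competes with MYC, fell by 1.36 in labelled knockouts and by 0.66 in controls. Mxi1, another such repressor, fell by 1.27 in labelled knockouts, while in controls it stood at -0.56 and did not pass (adjusted p 0.0901).

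**Figure D4:**
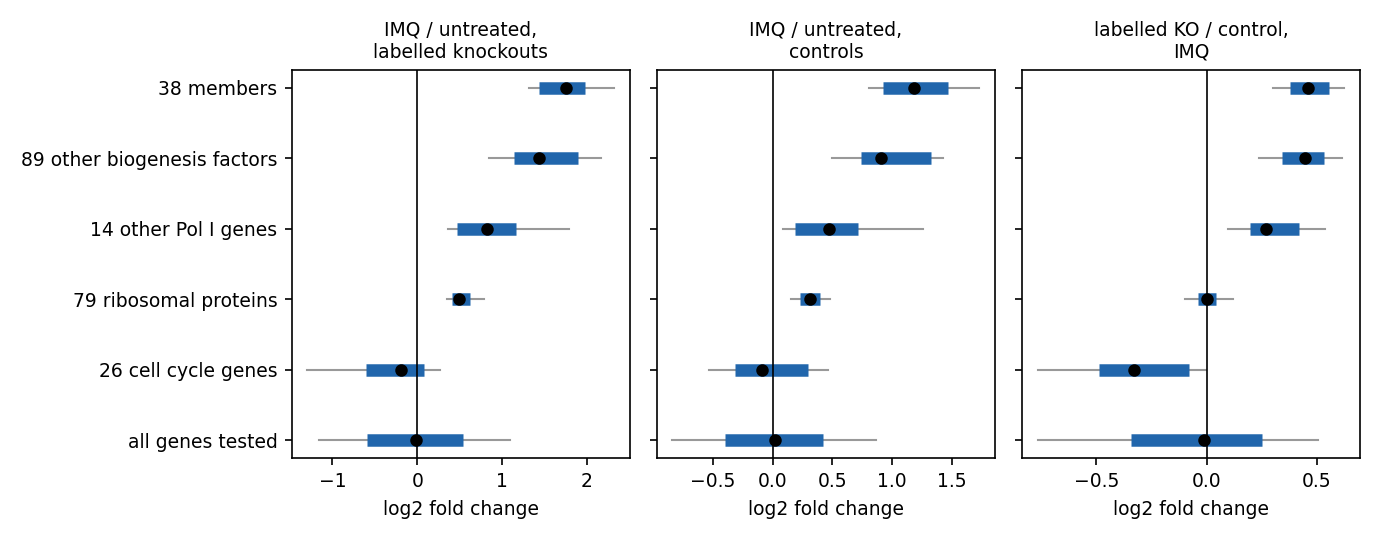
Log2 fold changes of the 38 members, 4 related gene lists and all 14614 genes tested, as the median (point), middle range from the lower to the upper quartile (thick bar) and the range without the outer deciles (thin line). From left to right the contrasts are IMQ over untreated in labelled knockouts, the same in controls, and labelled knockout over control under IMQ. The members' medians are 1.76, 1.18 and 0.46, and those of all genes -0.01, 0.02 and -0.01.

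Without IMQ the genotypes were not told apart at these genes. None of the 38 members passed in untreated labelled knockouts against untreated controls, and 0% of all genes tested did (0 genes by limma, 652 at an unadjusted p under 0.05; 0 by edgeR, 8 with sex as a block and 87 by DESeq2, 0.595%, none of them members). The members' median log2 fold change was -0.05, with 13 positive, and no member had an unadjusted p under 0.05. The extremes were Bop1 at 0.20 (SE 0.23) and Rrp9, a protein of the U3 snoRNP, at -0.29 (SE 0.22). Bop1 had 1695 (female) and 1493 (male) normalised counts in untreated labelled knockouts, against 1760 and 1082 in untreated controls. Rrp9 had 1144 and 1106 normalised counts in untreated labelled knockouts, against 1617 and 1177 in untreated controls. The groups overlapped for Bop1 and not for Rrp9. Over all members, Polr1a had both labelled knockouts above both controls (17.4% of all genes did), and Nhp2, Nop10, Rrp9 and Imp3 had both below (16.4% did). Myc had 14099 and 11888 normalised counts in untreated labelled knockouts, against 14163 and 11737 in untreated controls, a log2 fold change of 0.01 (SE 0.25).

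The sexes went opposite ways in untreated skin. In the female pair the members' median was -0.24, with 3 of 38 positive, and in the male pair it was 0.12, with 27 positive. Each pair is 1 mouse against 1 mouse, so neither has a test. Leaving out the female untreated control moved the median to 0.17, leaving out the male untreated labelled knockout moved it to 0.03, and leaving out the male untreated control moved it to -0.35.

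Under IMQ nearly all members had a positive estimate for labelled knockouts over controls, without a call by limma. The median log2 fold change over IMQ controls was 0.46, where that of all genes was -0.01, and 37 of 38 were positive, all but Myc. None of the 38 passed, and 0.438% of all genes did (64 genes by limma; 30 by edgeR, 0.205%, with 0 members). At an unadjusted p under 0.05 there were 13 members (34.2%) and 3208 of all genes (22.0%), and the members' adjusted p ran from 0.113 to 0.625. DESeq2 called 1247 genes (8.53%), 5 of them members: Polr1a, Nop58, Dkc1, Wdr12 and Noc2l. With sex as a block 358 genes (2.45%) passed, 0 of them members. For 36 members, all but Myc and Rrp12, both labelled knockouts lay above both controls (26.6% of all genes did).

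Dkc1 had the largest estimate. It read at 4919 (female) and 4275 (male) normalised counts in IMQ-treated labelled knockouts, against 2299 and 3500 in IMQ controls, 1.62-fold higher (log2 0.69, SE 0.21, adjusted p 0.129). Without the female IMQ control that value was 0.39, and without the male one 1.00. Wdr12 (0.69, SE 0.18, adjusted p 0.113) and Polr1a (0.51, SE 0.14, adjusted p 0.114) came nearest to the threshold, and Ltv1 had the lowest positive value at 0.26. By role the medians were 0.53 for RNA polymerase I, 0.59 for box C/D, 0.38 for box H/ACA, 0.44 for the small subunit side, 0.51 for the large subunit side and 0.44 for the multifunctional proteins. Myc had 4552 and 7462 normalised counts in IMQ-treated labelled knockouts, against 6162 and 7855 in IMQ controls (-0.26, SE 0.25, adjusted p 0.576), and these groups overlapped.

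The genotype difference under IMQ was larger in the female pair than in the male pair, each 1 mouse against 1. The female median was 0.74, with 37 of 38 members positive, and the male pair's was 0.21, with 36 positive. The female IMQ control was the library with the lowest sum of members and the lowest sum of neutrophil markers among the IMQ libraries, 58.8 CPM beside 271 CPM in the male control. Of the 4 neutrophil markers tested, 3 were higher in labelled knockouts over controls under IMQ and none passed. Csf3r, of low counts, was lower (-1.30, adjusted p 0.411 by limma). The female IMQ control also had the highest sums of endothelial markers, 17.7 CPM against 2.38 to 2.90 CPM in the other IMQ libraries, and of melanocyte markers, 96.7 CPM against 33.3 to 36.5 CPM. The part of these differences in the result was not tested. Without that library the members' median was 0.30, without the female labelled knockout 0.37, and without the male ones 0.58 (labelled knockout) and 0.63 (control).

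**Figure D5:**
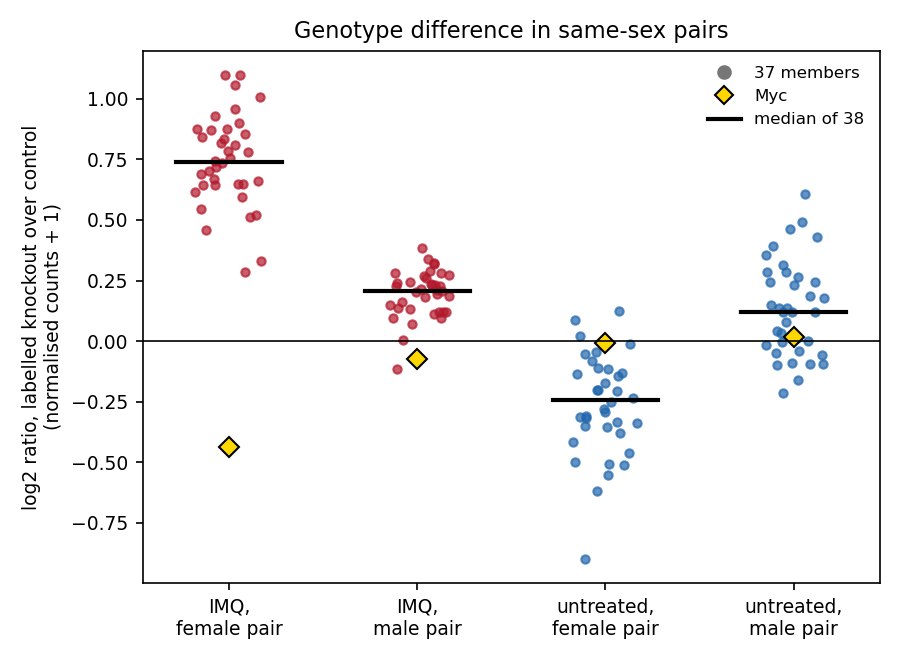
Log2 ratio of normalised counts + 1, labelled knockout over control, of each of the 37 members (dots), of Myc (diamond) and their median (line) in the same-sex pairs, with and without IMQ. Under IMQ the female pair has a median of 0.74 and the male pair 0.21; without IMQ the female pair has -0.24 and the male pair 0.12.

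Whether the genotype difference changed with IMQ was asked by the difference of these 2 contrasts. The controls were Ovol1 +/- without IMQ and +/+ with it, so the change of control genotype cannot be told apart from an effect of IMQ here. None of the members passed, and 0% of all genes did (0 genes by limma and by edgeR, 1472 and 1514 at an unadjusted p under 0.05, and 98 genes, 0.671%, but no member by DESeq2). At an unadjusted p under 0.05 there were 6 members. The members' median was 0.52, with 37 of 38 positive, and their adjusted p ran from 0.476 to 0.806. Rrp1b had the largest value at 0.93 (SE 0.45, adjusted p 0.511). It had 2579 and 2119 normalised counts in IMQ-treated labelled knockouts, against 1204 and 1767 in IMQ controls, and 308 and 404 in untreated labelled knockouts, against 574 and 307 in untreated controls. Only Myc was negative, at -0.26 (adjusted p 0.803). Rrp9 (0.92, SE 0.31, adjusted p 0.476) was among 4 members, with Nhp2, Nop10 and Imp3, whose labelled knockouts lay wholly above the controls under IMQ and wholly below them without it (2.96% of all genes did). By sex the members' median was 0.93 in females and 0.05 in males, and the untreated female control, which was the highest of the untreated libraries in these genes, and the female IMQ control, the lowest of the IMQ libraries, both enter the female value. Without the untreated female control the median was 0.28, and without the female IMQ control 0.35.

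In controls the IMQ effect was larger in the male pair than in the female pair. Each pair is 1 IMQ-treated mouse against 1 untreated mouse, so sex cannot be told from the single animals, and neither pair has a test. The members' median in controls was 0.80 in females and 1.58 in males, while in labelled knockouts it was 1.74 in females and 1.71 in males. Without the male IMQ control the members' median in controls was 1.02, and without the male untreated control it was 0.95. Without the female IMQ control it was 1.32, and without the female untreated control 1.36.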

How the data were processed

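RNA was taken from epidermis separated from dermis with dispase, and stranded, polyadenylated RNA libraries were sequenced, per the labels' protocols. The genome was mm10 and the tools STAR 2.5.2a, Trimmomatic 0.35, R 3.6.1 and DESeq2 1.24.0, per the submitters' processing notes, which give no read counter or annotation here. The authors deposited a signal: each library's read counts over a single size factor, with untreated and IMQ libraries scaled separately. All values (100%) were whole multiples of 1 step within 0.001 read, so whole reads were recovered (28.6 to 43.1 M per library). Low counts carry the larger counting error.

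Genotype contrasts used limma 3.58.1 (R 4.3.3, trend and robust) on log2(deposited value + 1). IMQ contrasts used limma on log2(CPM + 0.5) of recovered reads with TMM factors from edgeR 4.0.16. Both fits held 4 group means over 8 libraries (4 residual degrees of freedom), with genes at a mean of at least 10 and Benjamini-Hochberg adjustment over 14614 genes at 0.05. Fold changes on these scales understate changes of low genes. The fits were tested on simulated data. The 2 libraries of a group are a female and a male, and p-values measure only the spread between such libraries.

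Replicate numbers follow sex in the labels. Female minus male differences correlated between groups at 0.145 to 0.463 across all genes, so sex as a block was fitted as an alternative. Across the members alone these correlations ran from -0.0469 to 0.313. Members and lists were chosen with earlier results of these data known. Members were named by rule: Myc, the most abundant of each role, the extremes of each contrast and up to 8 called per direction and contrast; of other lists up to 3 called per direction. Other genes named for a count or an overlap were picked after their values were seen. Alternatives were other pseudocounts, filters, scalings, moderation, edgeR, DESeq2 1.42.0 and leaving out each library. Promoters are from RefSeq (GRCm38.p6) and positions from GENCODE vM21.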

Additional observations from a re-analysis of the deposited data

How the results depend on the processing

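The 37 members other than Myc kept a positive IMQ effect in both genotypes under every alternative run. In labelled knockouts their calls all held, and without 1 library 37 to 38 members passed (4767 to 7453 genes). The members' median there was 1.71 with a pseudocount of 2, 1.64 with total reads as the scale and 1.63 with quantile normalisation, and 1.64 to 1.83 without 1 library. Total reads moved the median of all genes to -0.11 in labelled knockouts and -0.03 in controls. In controls 24 to 36 members (2645 to 4394 genes) passed without 1 library, with a median of 0.95 to 1.36.

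For genotype without IMQ, the genes called were 5 with a pseudocount of 5, 8 with sex as a replicate block, 8 with each table fitted alone, 87 by DESeq2, 6 by edgeR with the block (an alternative chosen after seeing the data) and 0 to 2 without 1 library. The members' median ran from -0.35 to 0.17 without 1 library. Under IMQ the genes called were 358 with the block, 30 by edgeR, 282 by edgeR with the block, 1247 by DESeq2 (5 members) and 0 with plain moderation or with the IMQ table alone. Without 1 library they were 0 to 299, with 0 members, and the members' median was 0.30 to 0.63. For the difference, DESeq2 called 98 genes, and the median was 0.28 to 0.79 without 1 library. The block changed no other call of a member than Nolc1.

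The genotype value of Myc without IMQ changed sign, to -0.0195 on CPM, -0.0210 by edgeR, -0.0214 by edgeR with the block and -0.0146 by DESeq2, and to -0.12 without the female labelled knockout and -0.13 without the male control (0.14 at most, without the female control). That of Bop1 was -0.15 without the male untreated control and 0.56 without the female one. Without the female IMQ-treated labelled knockout, Myc became 0.10 under IMQ and 0.10 in the difference, and without the male one -0.61 and -0.62. The causes were not tested. Fitting each table alone gives no value for the difference or the IMQ effects. What greater read depth would change was not tested.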

Other observations

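Of 26 genes of DNA replication and mitosis, 1 rose and 6 fell in IMQ-treated against untreated labelled knockouts (median log2 fold change -0.20), and 2 rose and 2 fell in controls (median -0.09), by limma with Benjamini-Hochberg adjustment. Of all genes tested 26.2% rose and 24.1% fell in labelled knockouts, and 17.6% rose and 14% fell in controls. The share of the list that fell in labelled knockouts was thus near that of all genes. The share that rose was lower than that of all genes in each genotype, as was the share that fell in controls. Cdk1, the mitotic kinase, rose by 0.49 in labelled knockouts and by 0.62 in controls. Cdc6, which loads the replicative helicase, fell by 1.83 in labelled knockouts and by 1.21 in controls, and Rrm1, a ribonucleotide reductase subunit, fell by 0.89 and by 0.77. Cenpf and Ccnb2, of the kinetochore and of mitotic entry, fell by 1.70 and 1.60 in labelled knockouts, and stood at -0.57 and -0.50 in controls, where they did not pass. In labelled knockouts over controls under IMQ the list's median was -0.33 with 0 genes called, beside 0.46 for the ribosome biogenesis members, 0.44 for the 89 other biogenesis factors and 0.00 for the ribosomal protein genes.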
